A study of Larimichthys polyactis and Larimichthys crocea with 36 samples.

Results

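Muscle RNA of large yellow croaker (Larimichthys crocea, LC) was compared with that of its close relative, small yellow croaker (Larimichthys polyactis, LP). The comparison rests on 6 of the 36 libraries of the series, 3 labelled LC muscle and 3 labelled LP muscle. It covers every gene identifier (ID) that reached 1 FPKM in at least 3 of these 6 libraries, which were 9329 of the 24212 IDs in the table. FPKM, the unit of the deposited values, is a fragment count divided by transcript length and by the total of the library.

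The series holds brain, liver and muscle of LC, LP and their 2 hybrids, named LPC and LCP in the labels, as 12 groups of 3 libraries, and its subject is hybrid vigour in growth. Both groups used here were described by species and tissue alone. The labels give no age, sex, size, rearing condition or treatment, no agent or allele, and no position of the muscle on the fish. Nothing in them tells if replicate libraries stand for different fish, so each p-value is set against a spread between libraries that may be partly technical. Polyadenylated RNA was taken on oligo(dT) beads, per the labels' protocols.

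Yellow croakers are marine fish of the drum family, and the large species grows faster and to a greater size. Trunk muscle of fish is mostly white, fast-twitch fibre, whose messenger RNA is dominated by a small set of transcripts for contractile proteins, calcium-binding parvalbumin and enzymes of energy metabolism. In such a tissue a change in these few transcripts alters the relative level of all others, because every library is scaled to its own total.

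The files do not pair IDs with gene names or functions, so IDs are described by their level, their tissue pattern and the kind of their name. Of the 24212 IDs, 21317 have names that start with evm and carry 1 of 24 chromosome numbers (EVM IDs), 113 are EVM IDs without such a number, and 2782 start with BGI_novel. The numbers tested were 8733, 19 and 577. Marker genes could not be used to check the tissue label. In their place, 435 muscle-enriched IDs were defined from the hybrid libraries, as those with a mean of at least 10 FPKM in hybrid muscle and at least 10 times the mean of hybrid liver and of hybrid brain. They held 78.4%, 79.9% and 78.4% of the FPKM sum in LC muscle, against 71.1%, 73.2% and 72.4% in LP muscle. All 6 libraries thus carried mostly IDs that are muscle-enriched in the hybrids, with the LC libraries above those of LP. Library LC 3 differed from LC 1 and LC 2 in holding more of some IDs that are otherwise abundant in LP alone, and counts without it are given beside those values.

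LC muscle was the more concentrated of the species: a few abundant IDs took more of the signal, and most other IDs were listed at lower values. The 10 most abundant IDs of each library held 50.8%, 56.5% and 46.8% of the FPKM sum in LC, against 41.7%, 45.5% and 44.7% in LP. The libraries of the species did not overlap, at a mean of 51.4% (SD 4.86, n = 3) for LC and 44.0% (SD 2.05, n = 3) for LP (exact 2-sided permutation p = 0.1, the smallest p that 3 against 3 libraries can give, adjusted p = 0.125 over 5 comparisons of library values). The 100 most abundant held 83.9%, 85.2% and 82.7% in LC, against 74.3%, 75.0% and 79.1% in LP. IDs listed at 1 FPKM or more numbered 7179, 8077 and 7199 in LC, against 9647, 10645 and 9592 in LP. Their means were 7485 ± 513 in LC and 9961 ± 593 in LP (± SD over 3 libraries each; p = 0.1 by exact permutation, 0.125 adjusted). The median FPKM over the 9329 tested IDs was 1.97, 2.47 and 2.08 in LC, against 4.41, 5.10 and 3.81 in LP, again without overlap (exact permutation p = 0.1, adjusted p = 0.125, n = 3 each). For the share of the muscle-enriched IDs the means were 78.9% ± 0.866 in LC and 72.2% ± 1.06 in LP (± SD over 3 libraries each; p = 0.1 by exact permutation, 0.125 adjusted). FPKM sums per library were close to each other, at 788243 to 803344 in LC and 773497 to 821016 in LP. They are not a depth, and the number of fragments behind each value is unknown.

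**Figure D1:**
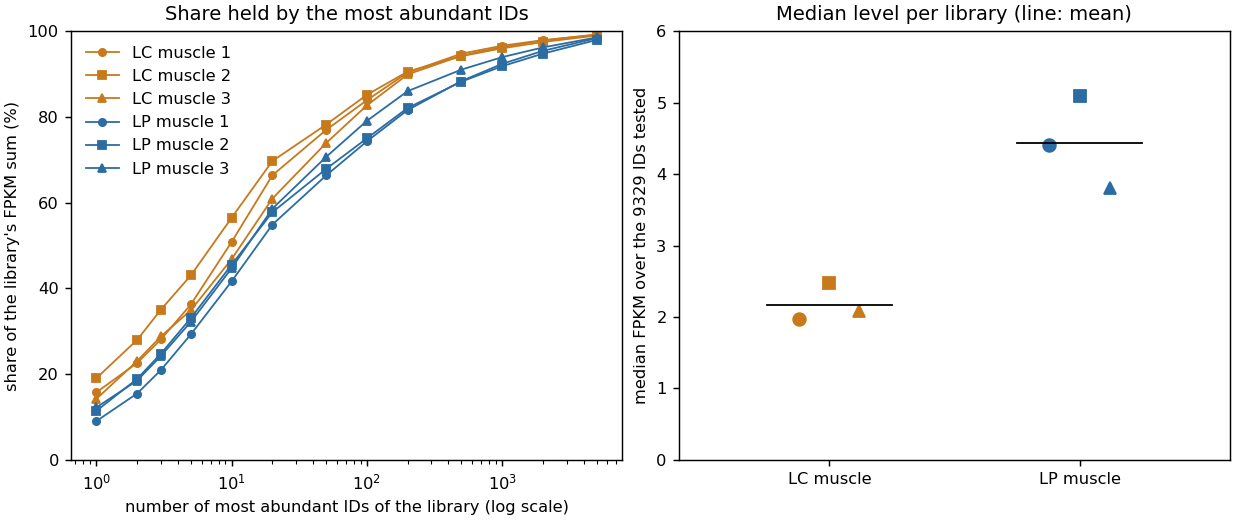
Left, the share of a library's FPKM sum (%) held by its most abundant IDs, against their number on a log axis, with 1 line per muscle library. Right, the median FPKM over the 9329 tested IDs per library, with the mean as a bar. At 10 IDs the LC lines lie at 46.8% to 56.5% and the LP lines at 41.7% to 45.5%, and at 100 IDs all LC lines lie above all LP lines. The LC medians are 1.97 to 2.47 FPKM and the LP medians 3.81 to 5.10 FPKM.

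Because of this difference in composition, log2 differences and calls, in muscle and between tissues, were computed on 2 scales. The first is the deposited FPKM. FPKM levels, ratios of means, percentages of a species mean and the threshold for testing are given on it unless scaling is named. The second scale divides each library by a size factor, the median over IDs of its ratio to the geometric mean of the 6 libraries, which sets the typical ID level between libraries. The size factors were 0.677, 0.826 and 0.682 for LC, against 1.37, 1.66 and 1.24 for LP. After this scaling the number of IDs at 1 or more was 8651, 8806 and 8569 in LC, against 8575, 8855 and 8701 in LP, so the species overlapped and the difference in detected IDs was no longer seen.

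Tested ID by ID as deposited, 261 IDs were higher in LC (2.8% of the 9329 tested) and 4437 were lower (47.6%), by limma on log2(FPKM + 1) with Benjamini-Hochberg adjustment and a call at an adjusted p under 0.05. Fold changes on this scale understate the change of IDs near or under 1 FPKM. The median difference, LC minus LP, was -0.71 on the log2 scale, and 8111 IDs lay below 0 against 1218 above. Median-ratio scaling gave 586 higher IDs (6.28%), 744 lower IDs (7.98%) and a median of -0.04. The split between higher and lower calls thus depends on the scale. It was 643 higher and 678 lower after quantile normalization, 754 and 637 with libraries set to a common median, and 377 and 1505 with libraries rescaled to the sum outside their 100 most abundant IDs. Of the 4437 lower calls, 3693 were made as deposited only, and 4301 IDs were called on neither scale.

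The composition of the libraries moved with this shift, and the libraries were therefore also rescaled to their sum outside the abundant IDs. The FPKM sum outside the 10 most abundant IDs was 386900 ± 40500 in LC and 443600 ± 15500 in LP (± SD over 3 libraries each), and rescaling the libraries to that sum moved the median difference to -0.56. The sum outside the 100 most abundant IDs was 127900 ± 10500 in LC and 188500 ± 14700 in LP (± SD over 3 libraries each). With that sum as the base the median difference was -0.32. Without the 435 muscle-enriched IDs it was -0.44. On these bases the typical ID was listed lower in LC, by less than as deposited. The median was -0.04 after median-ratio scaling and 0.07 with libraries set to a common median. The part of composition in the shift was not tested. In such bulk samples fewer cells of a type and less RNA per cell cannot be told apart.

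Calls made on both scales numbered 256 higher (2.74%) and 744 lower (7.98%), and these are used below unless a scale is named. Of them 185 and 517 differed by at least 2-fold on both scales. Requiring both scales kept all 744 lower calls of the scaled values, but only 256 of their 586 higher calls. The excess of lower over higher calls on both scales thus also depends on the deposited scale. Without library LC 1, LP 1, LP 2 or LP 3 the lower calls numbered 269, 376, 333 and 406, and the higher calls 190, 195, 176 and 206. IDs whose 3 LC libraries all lay above the 3 LP libraries numbered 350 as deposited (3.75%) and 1601 after scaling (17.2%). Those with all LC libraries below numbered 5255 (56.3%) and 1906 (20.4%).

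The threshold for testing favoured the species in which an ID is high. Of the 9329 IDs, 968 reached 1 FPKM in all 3 LP libraries and in no LC library, and 74 in all 3 LC libraries and no LP library. These had to differ, and they supplied 268 of the 744 lower calls and 69 of the 256 higher calls. Among the 8287 IDs that reached 1 FPKM in at least 1 library of each species, 187 were higher and 476 lower. IDs just inside the threshold, with exactly 3 libraries at 1 or more, numbered 1411 and had a median of 1.22 for their mean FPKM. Those just outside, with 2 such libraries, numbered 1187, with a median of 0.847.

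Within a species the libraries ranked the tested IDs alike. Spearman correlations across the 9329 IDs, which are not independent replicates, were 0.861 to 0.870 between LC libraries and 0.875 to 0.895 between LP libraries. Between LC and LP libraries they were 0.694 to 0.757. The median SD of an ID on the log2 scale was 0.28 in LC and 0.32 in LP as deposited, and 0.295 in LC and 0.27 in LP after scaling.

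The listed difference varied with how abundant an ID was. IDs were ranked by their mean FPKM in the 6 hybrid muscle libraries, which took no part in the comparison. As deposited, the median log2 difference was -0.53 for 620 IDs with a hybrid mean under 1 FPKM and -0.62 for 3990 IDs at 1 to 5. It was -0.86 for 2795 IDs at 5 to 20, -1.01 for 1331 at 20 to 100, -0.75 for 492 at 100 to 1000, and -0.04 for 101 at 1000 or more. The 1 added to FPKM before taking logs shrinks differences at low levels. Its part in the smaller deposited medians of the lowest classes was not tested. The median near 0 of the most abundant class covers IDs that went both ways, with the 10th and 90th percentiles at -4.45 and 0.86. After scaling the medians of the 4 classes under 100 lay between -0.12 and -0.02, and those of the last 2 classes were 0.20 and 0.92. Quantile normalization, which gives all libraries the same distribution of values, set the class at 1000 or more level with the other IDs, at 0.02 above them, against 0.97 after median-ratio scaling and 0.67 as deposited.

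The calls also varied with the class. In the class at 1000 FPKM or more, with 101 IDs, 14 were higher and 17 lower as deposited, against 2.8% and 47.6% over all tested IDs. The lower share in this class was 16.8%. After scaling 21 were higher and 7 lower, against 6.28% and 7.98% over all tested IDs. That class took 79.0% ± 2.41 of the FPKM sum in LC and 74.1% ± 2.75 in LP (± SD over 3 libraries each), with library LP 3, at 77.3%, within the LC range of 76.4% to 81.1%. In the class at 20 to 100 FPKM, 39 were higher and 687 lower as deposited, where the lower share of 51.6% was near the 47.6% over all tested IDs. The share called after scaling was 11.3% in the class at 1 to 5 and 27.7% in that at 1000 or more, against 14.3% over all tested IDs.

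**Figure D2:**
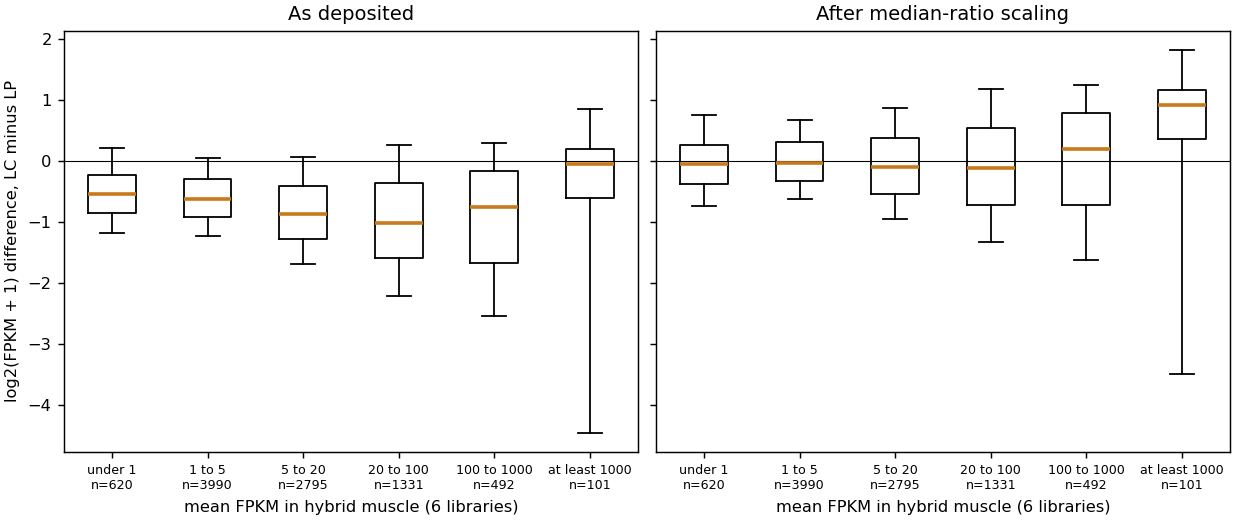
Log2(FPKM + 1) difference, LC minus LP, for tested IDs in 6 classes of mean FPKM in hybrid muscle, as deposited on the left and after median-ratio scaling on the right. Boxes span the quartiles with the median as a coloured bar, whiskers reach the 10th and 90th percentiles, and n is the number of IDs. As deposited the medians run between -1.01 and -0.04, and after scaling the class at 1000 or more has a median of 0.92.

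The 10 most abundant IDs, ranked by their mean over the 6 libraries, were all muscle-enriched in the hybrids. Their ratio of LC to LP means ran between 0.647 and 2.05 as deposited. Of these 10, 4 were called higher in LC and none lower as deposited, and the libraries of the species overlapped for the other 6. After scaling 6 were called higher. As deposited, the means of these 10 IDs thus did not move as a block. Those with a mean below that of LP overlapped between the species and were called on neither scale. The ratios are given as deposited alone. Scaling raises every one of them, as the size factors were 0.677 to 0.826 in LC and 1.24 to 1.66 in LP. Scaled ratios were not computed, so nothing is said of a block on that scale.

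The single most abundant ID, evm.model.Chr1.830, had 124156.98, 151637.13 and 114261.80 FPKM in LC muscle, against 69967.17, 89257.25 and 100433.53 FPKM in LP muscle. It ranked first in all 6 libraries and held 15.8%, 19.1% and 14.2% of the FPKM sum in LC, against 9.05%, 11.4% and 12.2% in LP, with no overlap. Its log2 difference was 0.59 (SE 0.18, limma adjusted p = 0.0264) as deposited and 1.56 (SE 0.22, adjusted p = 0.00533) after scaling. Over the removal of each library the difference as deposited stayed between 0.45 (without LP 1) and 0.71 (without LP 3). The call was lost in several removals. The limma adjusted p was 0.058 without LC 1, 0.122 without LC 2, 0.0976 without LP 1 and 0.0503 without LP 2. It was 0.2 with no filter on low values. After quantile normalization the difference was 0 by construction, since the ID ranks first everywhere. In hybrid muscle it had 55002.66, 44610.43 and 54037.50 FPKM in LPC, and 79318.28, 60538.07 and 59622.57 FPKM in LCP. In liver its means were 1.31 FPKM in LC and 1.35 FPKM in LP. In brain they were 16.6 ± 16.8 FPKM in LC and 43.9 ± 72.1 FPKM in LP (± SD over 3 libraries each), with a highest value of 127.16 FPKM in an LP brain library.

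A pair of the 10 most abundant IDs carried consecutive numbers, 626 and 627, on chromosome 21 and divided their joint signal differently in the species. The first averaged 18700 ± 5123 FPKM in LC and 28790 ± 9407 FPKM in LP, and the second 25590 ± 9973 FPKM in LC and 12460 ± 2614 FPKM in LP (± SD over 3 libraries each). The first held 25.9%, 49.9% and 54.4% of their sum in the LC libraries, against 63.7%, 78.3% and 64.6% in the LP libraries. These shares did not overlap, while the sums as deposited did, at 44290 ± 5645 FPKM in LC and 41260 ± 9363 FPKM in LP (± SD over 3 libraries each). Scaling leaves the shares as they are. It raises each LC sum and lowers each LP sum (size factors 0.677 to 0.826 in LC and 1.24 to 1.66 in LP). Scaled sums were not compared, so the overlap is stated for the deposited scale alone. The pair was chosen after its values were seen. Whether the IDs are similar enough in sequence to share reads was not tested.

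Muscle-enriched IDs spread widely in both directions. Of 427 tested, 46 were higher and 39 lower in LC on both scales, against 2.74% higher and 7.98% lower over all IDs. Their scaled median difference was 0.39, with 80 higher and 39 lower calls. As deposited it was -0.52, with 47 higher and 133 lower calls. Over all tested IDs 2.8% were higher and 47.6% lower as deposited, and 6.28% and 7.98% after scaling. The lower share of the muscle-enriched IDs as deposited was 31.1%. Relative to all other tested IDs their median lay 0.19 higher as deposited, 0.45 higher after median-ratio scaling and 0.13 higher after quantile normalization. Their scaled differences had the 10th and 90th percentiles at -2.19 and 2.22, against -0.89 and 0.90 over all tested IDs. A scaled log2 difference of at least 2 in either direction was seen in 22.0% of them and in 3.18% of all tested IDs. That share also rose with abundance in hybrid muscle. It was 1.28% at 1 to 5 FPKM, 6.91% at 20 to 100, 9.35% at 100 to 1000 and 21.8% at 1000 or more. Muscle-enriched IDs have at least 10 FPKM by definition, and no comparison at like abundance was made.

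IDs enriched in another organ give the level of such RNA in these libraries. Of 2762 IDs enriched in hybrid brain by the same rule, 584 were tested. They took 0.299% ± 0.0336 of the FPKM sum in LC muscle and 0.454% ± 0.0692 in LP muscle (SD, n = 3 each). On both scales 18 were higher and 31 lower, where all tested IDs gave 2.74% and 7.98%. Of 514 liver-enriched IDs 58 were tested, with 0.0401% ± 0.0214 of the sum in LC and 0.0538% ± 0.00988 in LP (± SD over 3 libraries each), and 4 were called in each direction, beside the same shares over all tested IDs. The scaled medians of these groups were 0.03 and 0.06. The part of such RNA in other differences was not tested. A set of 514 IDs with at least 10 FPKM in all 3 hybrid tissues and at most a 3-fold range between them, of which 510 were tested, had 7 higher and 34 lower calls, against 2.74% and 7.98% over all tested IDs. Its median was -0.71 as deposited, as over all tested IDs, and 0.21 after scaling. Relative to other IDs this set lay within 0.01 as deposited and after quantile normalization and 0.26 higher after median-ratio scaling.

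The largest differences belonged to BGI_novel IDs. Of the 577 tested, 74 were higher and 133 lower on both scales, while the 8733 EVM IDs with a chromosome number gave 180 higher and 609 lower. Over all tested IDs the shares were 2.74% and 7.98%. A scaled log2 difference of at least 2 was seen in 27.9% of BGI_novel IDs and in 1.53% of those EVM IDs. These kinds of ID were not matched for abundance. Among IDs called on both scales with at least a 16-fold difference on both, 25 of 29 higher and 27 of 27 lower were BGI_novel. They also varied more between libraries of a species, with a median SD of 0.413 in LC and 0.456 in LP as deposited. As a group they held 9.78%, 8.16% and 16.3% of the FPKM sum in LC, against 17.0%, 14.4% and 14.8% in LP, with library LC 3 inside the LP range (exact permutation p = 0.3, adjusted p = 0.3, n = 3 each).

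**Figure D3:**
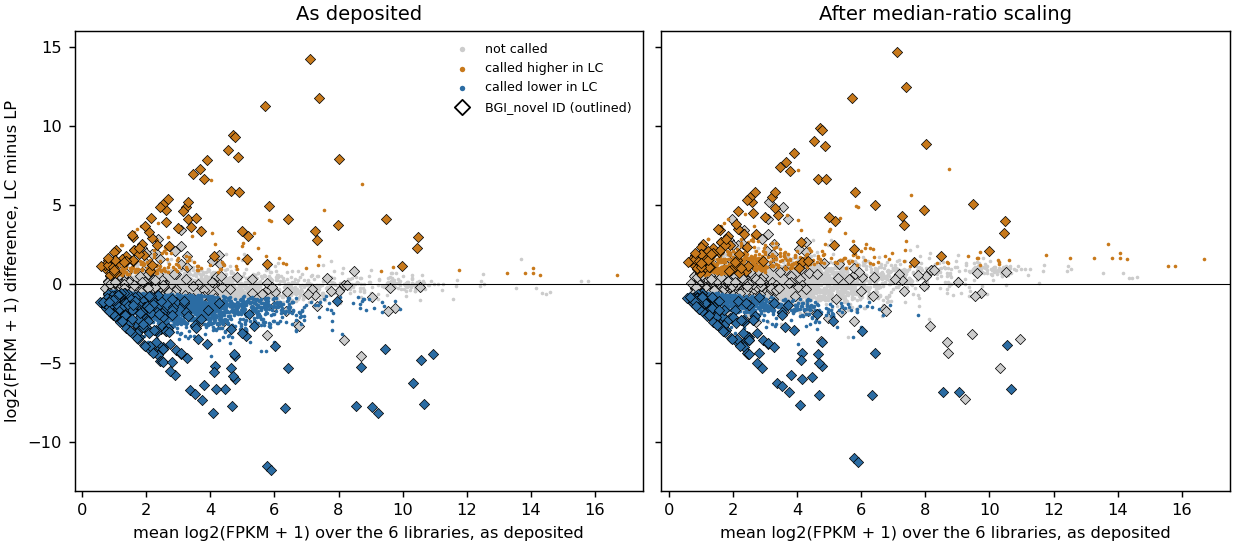
Log2(FPKM + 1) difference, LC minus LP, against the mean log2(FPKM + 1) over the 6 muscle libraries, as deposited on the left and after median-ratio scaling on the right, with 1 point per tested ID. Coloured points were called at an adjusted p under 0.05 on that scale, and outlined diamonds are BGI_novel IDs. The deposited panel has 261 higher and 4437 lower calls, the scaled panel 586 and 744, and most points with differences past 4 in either direction are diamonds.

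The typical size of the difference varied over the running number of the BGI_novel IDs, while large differences occurred in every range of it. Of those numbered 1 to 100, 54 were tested, with 6 higher and 19 lower and a median absolute scaled difference of 2.37 on the log2 scale, and 17 differed by at least 4. Of those numbered 2501 to 2700, 65 were tested, with 17 higher and 9 lower and a median of 2.49, and 22 differed by at least 4. Between them, 433 tested IDs numbered 101 to 2500 had 45 higher and 101 lower and a median of 0.82, and 24 differed by at least 4. The 25 tested IDs above 2700 had 6 higher and 4 lower and a median of 0.63, and 4 differed by at least 4. Beside these counts stand 74 higher and 133 lower of all 577 tested BGI_novel IDs, and 2.74% and 7.98% over all tested IDs. Numbers 2501 to 2700 alone held 9.2% ± 4.17 of the FPKM sum in LC and 10.7% ± 1.04 in LP (± SD over 3 libraries each), and numbers 1 to 100 held 0.939% ± 0.434 in LC and 3.47% ± 0.341 in LP (± SD over 3 libraries each). These ranges were set after the values were seen, and what the numbers stand for is not stated in the sources used here.

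The largest increase among IDs detected in all 6 libraries was that of BGI_novel_G002586, chosen from 63 IDs called higher with a mean of at least 5 FPKM in both species and no overlap. It had 3244.96, 2022.03 and 9887.02 FPKM in LC muscle, against 15.09, 15.49 and 16.65 FPKM in LP muscle. The LC libraries differed among themselves and all lay far above the LP libraries, which were close together. The log2 difference was 7.91 (SE 0.54, limma adjusted p = 0.00012) as deposited and 8.83 (SE 0.62, adjusted p = 0.000325) after scaling. Hybrid muscle held 8714.71, 184.27 and 1370.10 FPKM in LPC and 107.49, 167.17 and 236.55 FPKM in LCP. It was at most 3.15 FPKM in any LC brain or liver library and listed at 0 in all LP brain and liver libraries, so it entered no test there.

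BGI_novel_G002583 was the most abundant of 19 IDs that reached 1 FPKM in every LC library and were listed at 0 in every LP library. It had 27823.85, 15274.69 and 16306.43 FPKM in LC muscle, against 0 in each LP muscle library. It was chosen for this pattern, so no test is given, and no fold is given against a group listed at 0. Hybrid muscle held intermediate values, 10171.73, 3257.38 and 4183.76 FPKM in LPC and 1869.31, 702.15 and 11683.30 FPKM in LCP. It was also listed at 0 in LP brain and liver, and its mean was 6.60 FPKM in LC brain and 0.583 FPKM in LC liver.

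In the other direction, BGI_novel_G000326 had the largest decrease among 113 such IDs. It had 2.13, 9.52 and 3.36 FPKM in LC muscle, against 1475.31, 1026.30 and 1262.16 FPKM in LP muscle. As deposited, even the lowest LP library held over 100 times the FPKM of the highest LC library, a ratio that is smaller after scaling. The log2 difference was -7.89 (SE 0.46, limma adjusted p = 6.045e-05) as deposited and -7.02 (SE 0.48, adjusted p = 0.000285) after scaling. Both hybrids lay far above LC, with 776.33, 899.49 and 887.22 FPKM in LPC muscle and 826.48, 2385.74 and 1110.99 FPKM in LCP muscle. In brain the ID was also lower in LC, at 41.41, 75.91 and 42.30 FPKM, against 434.76, 536.44 and 424.67 FPKM in LP (log2 difference -3.15, adjusted p = 0.00389). In liver it averaged 1.35 ± 1.68 FPKM in LC and 2.15 ± 0.83 FPKM in LP (± SD over 3 libraries each; log2 difference -0.61, adjusted p = 0.459).

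BGI_novel_G002574 was the most abundant of 34 IDs present in every LP library and listed at 0 in every LC library. It was listed at 0 in all 3 LC muscle libraries, against 4185.90, 664.61 and 9241.26 FPKM in LP muscle, again the pattern it was chosen for. The LP libraries spread over 10-fold. Hybrid muscle held 1714.41, 6855.27 and 4877.74 FPKM in LPC and 5523.70, 2400.59 and 2942.35 FPKM in LCP, all within the LP range. BGI_novel_G002574 lies in the number range 2501 to 2700, as do BGI_novel_G002583 and BGI_novel_G002586, which were higher in LC. Whether these IDs share reads was not tested. BGI_novel_G002586 and BGI_novel_G000326 kept their call and direction under every alternative run, the removal of each library included. Both were chosen for the largest difference among IDs called on both scales without overlap, so this outcome was nearly fixed by the choice.

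**Figure D4:**
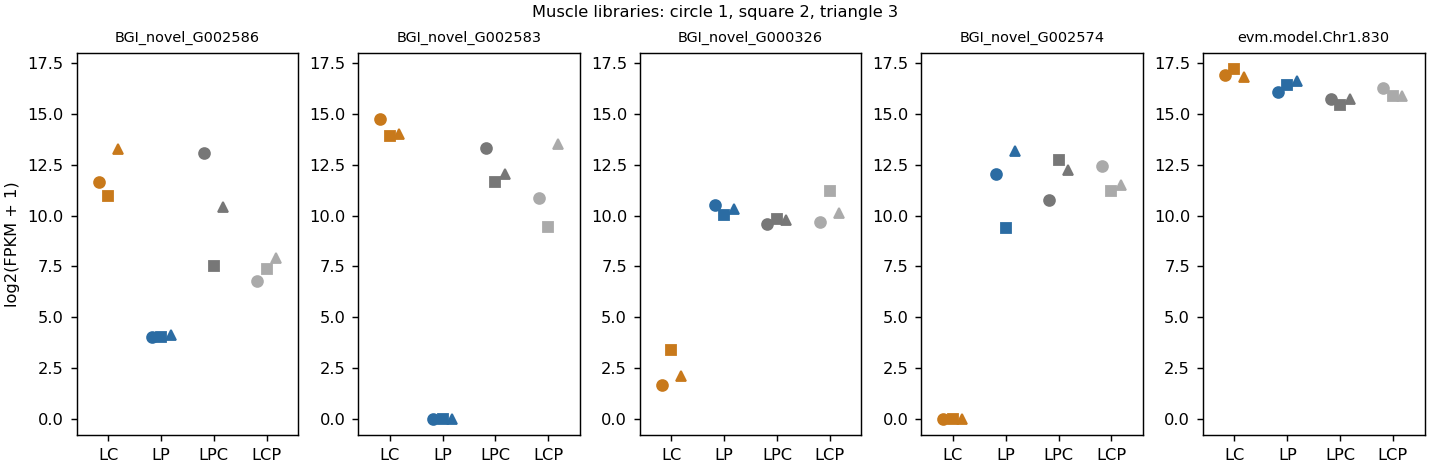
Log2(FPKM + 1) in muscle for the 5 named IDs, with LC left of LP and the hybrids LPC and LCP to their right, and 1 marker per library (circle, square and triangle for replicates 1, 2 and 3). BGI_novel_G002583 is listed at 0 in all 3 LP libraries and BGI_novel_G002574 in all 3 LC libraries, and in these 2 IDs all 6 hybrid libraries lie above 0. The LC and LP markers do not overlap in any panel.

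IDs present in all libraries of 1 species and listed at 0 in all of the other numbered 19 for LC, of which 11 were BGI_novel, and 34 for LP, of which 29 were BGI_novel. The 19 had species means of 1.82 to 19800 FPKM with a median of 12.5, and the 34 had means of 1.24 to 4697 FPKM with a median of 4.27. All IDs of both sets were called on both scales, as their selection requires a difference. Which species' genome or annotation the authors used is not given in the sources, and its part in values listed at 0 and in the BGI_novel differences was not tested. Of the 19, 13 were listed at 0 in every LP brain and liver library as well. Of the 34, 15 were listed at 0 in every LC brain and liver library, while 11 reached 1 FPKM somewhere in those LC organs. In hybrid muscle 7 of the 19 and 12 of the 34 were at 1 FPKM or more in all 6 libraries, and none was at 0 in all of them. With an ID counted as absent at a mean under 0.1 FPKM the numbers were 29 for LC and 63 for LP, and with presence set at 5 FPKM they were 8 and 10.

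Library LC 3 stood apart in the IDs that are abundant in LP alone. There were 17 IDs, all BGI_novel, with at least 50 FPKM in every LP library and an LC median of at most 1% of the LP mean. In LC 3 their median level was 1.46% of the LP mean, with the highest at 49.6%, and 7 of the 17 exceeded 2%. In LC 1 and LC 2 the medians were 0.0638% and 0.0948%, the highest values 0.804% and 0.887%, and none exceeded 2%. These LC percentages are as deposited. Scaling raises them in all 3 LC libraries, with size factors of 0.677, 0.826 and 0.682, against 1.24 to 1.66 in LP. The limit on the LC median lets only 1 LC library of each ID lie above 1%, so low values in the others are partly fixed by it. Which library lies above was not fixed. For the 12 IDs of the opposite kind the medians were 0 in all 3 LP libraries, and 1 ID exceeded 2%, at 2.37% in LP 2. A second set was defined outside muscle, as IDs seen in brain and liver of LP alone, and 7 of its 11 IDs reached 1 FPKM in LP muscle. The highest value of these 7 was 0.04 FPKM in LC 1, 0.01 FPKM in LC 2 and 0.15 FPKM in LC 3. LC 3 was again the highest, though all these values lay far under 1 FPKM. Without LC 3 the calls on both scales numbered 241 higher and 638 lower, of which 206 and 503 were among those made with it.

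The typical difference was similar on all chromosome numbers, which BGI_novel IDs do not carry. Over the 24 chromosome numbers the median log2 difference ran from -0.79 on chromosome 18 to -0.65 on chromosome 12 as deposited, and from -0.11 to 0.03 after scaling on the same chromosomes. A shift shared by whole libraries moves every chromosome alike, so these medians do not show where single differences lie. Positions were not used, and consecutive numbers on a chromosome stood in for neighbours. Among 3050 pairs with consecutive numbers, 15 were both higher after scaling, 18 both lower and 25 opposite, with a Spearman correlation of the differences of 0.08. Among 2527 pairs 20 numbers apart there were 6, 12 and 20, with a correlation of -0.003. These counts and correlations are descriptions across IDs.

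The muscle differences were then set against those of brain and liver, in which libraries of their own were fitted in the same way. Of the 256 IDs higher in LC muscle, 147 were also tested in liver, where 58 were higher in LC (39.5%, 2 opposite) against 3.82% of the 7915 IDs tested in both tissues. Of the 180 tested in brain, 39 were higher (21.7%, none opposite) against 0.977% of 8596. Of the 744 IDs lower in LC muscle, 627 were tested in liver, where 95 were lower (15.2%, 3 opposite) against 3.44%. Of the 679 tested in brain, 50 were lower (7.36%, 1 opposite) against 0.896%. Among IDs tested in both tissues, these shared calls made up 19.2% of those higher and 34.9% of those lower in LC liver, and 46.4% and 64.9% of those in LC brain. Called the same way in all 3 tissues were 30 higher IDs of 141 tested in all of them and 32 lower IDs of 612. The share over all IDs tested in the 3 tissues was not computed, so these 2 counts are descriptions alone.

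**Figure D5:**
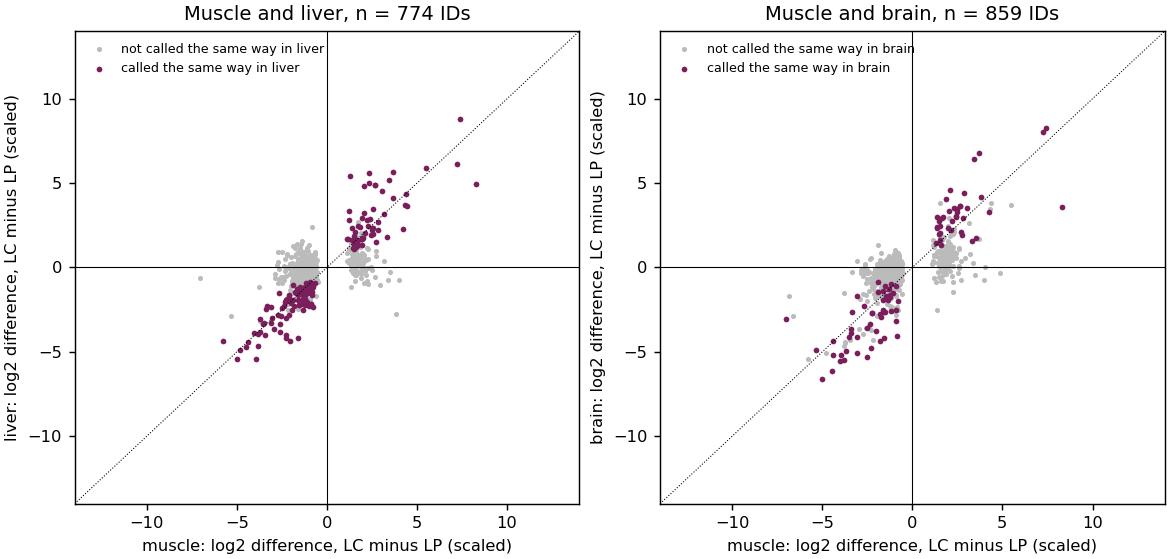
Scaled log2 difference, LC minus LP, in liver (left, 774 IDs) and brain (right, 859 IDs) against that in muscle, for IDs called in muscle on both scales and tested in the other tissue. Dark points were called the same way there, and the dotted line marks equal differences. The dark points number 58 higher and 95 lower for liver, and 39 and 50 for brain.

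Whether a species difference differed between tissues was tested by the interaction contrast. As deposited, the difference in muscle lay above that in liver for 72 IDs (0.91%) and below it for 2489 (31.4%). After scaling the counts were 149 (1.88%) and 230 (2.91%). Against brain they were 53 (0.617%) and 1327 (15.4%) as deposited, and 73 (0.849%) and 83 (0.966%) after scaling. The excess of lower IDs in LC muscle over both other tissues was thus seen on the deposited scale, and after scaling the counts above and below were closer to each other. Of the 147 IDs higher in muscle and tested in liver, 20 (13.6%) also differed upward from liver on both scales. Of the 180 tested in brain, 26 (14.4%) differed upward, and 7 of the 141 tested in both tissues did so from both. Of the 627 lower IDs tested in liver, 121 (19.3%) differed downward, and of the 679 tested in brain, 66 (9.72%). From both tissues 40 of the 612 lower IDs tested in both differed downward. These IDs were chosen on the same muscle libraries that enter the contrasts, which by itself raises such shares above those over all IDs.

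BGI_novel_G000326 belonged to those 40. Its decrease in LC muscle exceeded that in liver by -7.28 on the log2 scale (SE 0.69, limma adjusted p = 0.00018) and that in brain by -4.74 (SE 0.55, adjusted p = 0.0011). After scaling these values were -6.39 (adjusted p = 0.000731) and -3.96 (adjusted p = 0.00364). The lower level in LC was therefore seen in muscle and brain, with the larger listed difference in muscle. In liver the mean of this ID was 2.15 FPKM in LP, which left no room for a decrease of that size. The ID was chosen for its muscle difference, so the contrast with liver had to pass. The same choice favours a larger difference in muscle than in brain, so that contrast is no independent test. For the most abundant ID, evm.model.Chr1.830, no difference between tissues passed the test, at 0.67 (SE 0.49, adjusted p = 0.294) against liver and 0.59 (SE 1.79, adjusted p = 0.839) against brain as deposited. After scaling the values were 1.63 (adjusted p = 0.111) and 1.47 (adjusted p = 0.712).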

How the data were processed

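The deposited values are FPKM, computed by the authors, with 1 column per library and 2 decimals. Reads were passed through fastp, per the submitters' processing notes; what aligned and quantified them, and against which genome and annotation, is not given in the sources used here. All columns were matched to libraries by name. Low values showed no steps of whole fragments (the fullest bin of ratios held at most 8.6% of low IDs), so depth is unknown and no count test was run.

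IDs that reached 1 FPKM in 3 or more of the 6 libraries were fitted with limma 3.58.1 (trend, 2-sided) in R 4.3.3 on log2(FPKM + 1), with Benjamini-Hochberg adjustment over all of them. Interactions used 12 libraries of LC and LP in 2 tissues, treated as independent. Library values were compared by exact permutation in Python 3.11.15 with scipy 1.17.1. The scripts were tested on simulated data. Alternatives were other scalings, pseudocount, filters, all 12 muscle libraries, a replicate block and leaving out each library. IDs were named by rule: per direction, the largest difference with at least 5 FPKM in both species, and the highest mean among IDs listed at 0 in the other species, plus the most abundant ID. The comparison, lists and classes were chosen with earlier results of these data known.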

Additional observations from a re-analysis of the deposited data

Results flagged for a closer look

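The size of the species difference was tested between tissues, and the following IDs passed that test. As deposited, the LC minus LP difference in muscle lay above that in liver for 72 IDs and below it for 2489, and above that in brain for 53 and below it for 1327. After median-ratio scaling the counts were 149 and 230 against liver, and 73 and 83 against brain. On both scales 40 IDs called lower in muscle and 7 called higher passed against both tissues. Of the 5 named IDs, not all of which entered these tests, BGI_novel_G000326 passed in both and is among the 40. Its muscle difference was -7.28 on the log2 scale from that in liver and -4.74 from that in brain. It was chosen for its muscle difference, which favours both contrasts, and its liver mean of 2.15 FPKM in LP left no room for such a decrease there. The muscle-enriched share and library concentration differed between LC and LP libraries in muscle at the same time, and their part in the deposited counts was not tested.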

How the results depend on the processing

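The scale moved the counts of calls and the median difference. As deposited, LC had 261 higher and 4437 lower IDs and a median difference of -0.71. The alternatives gave 586 and 744 (median -0.0443) after median-ratio scaling, 643 and 678 (-0.0101) after quantile normalization, and 754 and 637 (0.0655) with a common median. With libraries rescaled to the sum outside their 10 or 100 most abundant IDs, an alternative chosen after seeing the data, lower calls numbered 2809 and 1505, and the median was -0.32 for 100. A filter of 5 FPKM, which leaves 3828 IDs to test, gave 137 and 1924 (-0.91). No filter gave a median of -0.24, and a pseudocount of 0.1 a median of -0.99. The calls for muscle against liver, 2561 in all, became 379 after median-ratio scaling and 403 after quantile normalization, and those against brain, 1380, became 156 and 259. IDs listed at 0 in the other species numbered 29 and 8 for LC, and 63 and 10 for LP, under other limits of absence and presence. The difference in IDs at 1 FPKM was -2476 as deposited and -35 after scaling. None of the 5 named IDs reversed under an alternative (the most abundant was at 0 after quantile normalization), and no ID was called lower as deposited and higher after median-ratio scaling. Apart from the most abundant, the named IDs were chosen for a large muscle difference, so a reversal could hardly occur.

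Leaving out each library in turn left 195 to 249 IDs higher and 2832 to 4414 lower as deposited, with fewest lower calls without LC 1 (2832) and LP 2 (2956). The median ranged from -0.79 to -0.63. After scaling, 252 to 503 were higher, at 292 without LC 1, 329 without LP 1, 252 without LP 2 and 328 without LP 3, and 269 to 638 were lower. On both scales 176 to 241 were higher and 269 to 638 lower. Calls against liver ranged from 1627 to 2659 and those against brain from 748 to 1590, lowest without LC 1 and, at 1694 and 835, without LP 2. The share of the 10 most abundant IDs differed by 4.83 to 9.68 percentage points, and IDs at 1 FPKM by -2772 to -2134. Calls against liver and brain were most numerous without LP 3, at 2659 and 1590.

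Same-numbered LC and LP libraries did not deviate together (correlations of -0.067, -0.01 and 0.02). Differently numbered ones ran from -0.193 to 0.211. A pairing by number was thus not seen, but so few libraries cannot exclude it. With a replicate block 256 IDs were higher and 4387 lower as deposited. After scaling 400 were higher and 462 lower, and on both scales 248 and 462.

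Depth is unknown, no value has a counting interval, and 3 libraries against 3 cannot give an exact permutation p below 0.1 for a single value. Genes are unnamed, so no function is attached to any difference. Whether similar IDs share reads was not tested.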
